A study of Drosophila melanogaster with 16 samples.

Results

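The insulin and adipokinetic hormone axis was followed in whole second-instar Drosophila melanogaster larvae through 9 genes. They are the insulin-like peptides Ilp2, Ilp5 and Ilp6, the insulin-binding proteins ImpL2 and Sdr, the insulin receptor InR with its substrate chico, and the peptide hormone Akh with its receptor AkhR. The genes were taken by symbol from a table of 9863 genes, in which all 9 were present, and all 9 were among the 9837 genes that passed the filter on low values. Ilp1, Ilp3, Ilp4, Ilp7 and Ilp8 are not analysed here. The 16 libraries form 4 groups of 4: larvae labelled mutant for the allele cwoB9 on high sugar, larvae labelled mutant on low sugar, control larvae on high sugar and control larvae on low sugar. All larvae had fed as first instars for 24 h at 25 °C on the low-sugar diet, which holds 10% yeast, and then spent 8 h as early second instars on dyed food, either of the same kind or a high-sugar diet of 10% yeast and 15% sucrose. The sources used here do not give the strain behind the control, the nature of the allele, how many larvae were pooled or their sex. They also leave unstated whether replicates were separate cultures. The p-values therefore measure a spread between libraries that may be technical. The series asks, by its title, how Clockwork orange takes part in sugar-responsive transcription. This protein, encoded by cwo, is a transcriptional repressor of the circadian clock.

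In flies, Ilp2 and Ilp5 are made mainly by neurosecretory cells of the brain and released into the blood, while Ilp6 comes mainly from the fat body, the organ that stores fat and glycogen, and from glia. Insulin-like peptides activate InR, which acts through chico, PI3K and Akt to promote growth and storage and to keep the transcription factor foxo out of the nucleus. ImpL2 and Sdr are secreted proteins that bind insulin-like peptides and lower signalling. Akh is the fly counterpart of glucagon: cells of the corpora cardiaca release it, and AkhR, a G protein-coupled receptor on fat body cells, sets off the release of stored fat and sugar.

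RNA was read from rRNA-depleted total RNA, and levels are given as CPM as deposited, on a scaling to library size that the submitters do not state. Positions are those of BDGP6 in Ensembl release 115. By the step between the deposited values, libraries held 44.9 to 54.2 M reads (M for mega) in the genes of the table. The labels' protocols state a mean of 30 M reads, and the gap between these figures was not resolved. A member was counted with 72 to 7473 reads in a library, the fewest for Ilp5. The level of cwo itself was 267 to 291 CPM in mutant-labelled larvae on high sugar and 139 to 199 CPM in mutant-labelled larvae on low sugar, against 63.98 to 72.8 and 54.9 to 58.3 CPM in control larvae on high and on low sugar. It was thus higher in every library labelled mutant than in any control library. As the nature of the allele is not given, the RNA level does not tell the genotype or the state of the protein. The genotype names below are those of the labels only. A score of 15 Tweedle cuticle genes, the mean log2(CPM + 0.5), stood at 5.26 to 5.96 in 4 libraries, 1 in each group, and at 3.12 to 4.78 in the other libraries. These 4 libraries were mutant-labelled high-sugar replicate 3, mutant-labelled low-sugar replicate 4, control high-sugar replicate 4 and control low-sugar replicate 1, and results are given below with and without them. In whole larvae, fewer cells of a type and less RNA per cell cannot be told apart.

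Markers of the cell types that make or receive these hormones, where present in the table, were at 0 in no library. Counts of markers called, here and below, stand against the shares of all genes called by the same test. Between the diets 22.5% of all genes were higher on high sugar and 29.5% lower in mutant-labelled larvae, and 33.1% and 34.8% in control larvae. Mutant-labelled against control, 21.1% were higher and 18.9% lower on high sugar, and 23.1% and 20.8% on low sugar. The summed level of 9 neuroendocrine peptide genes was 65.5 to 69.3 CPM in mutant-labelled larvae on high sugar, 59.5 to 62.6 CPM in mutant-labelled larvae on low sugar, 62.4 to 68.2 CPM in control larvae on high sugar and 48.2 to 56.2 CPM in control larvae on low sugar. Of these 9 genes, 3 were higher on high sugar in mutant-labelled larvae and 6 in control larvae. Of the same 9 genes, 1 was higher and 1 lower in mutant-labelled than in control larvae on high sugar, and 5 were higher on low sugar. For the fat body 3 of 7 markers were in the table, with sums of 5669 to 6837 CPM in mutant-labelled larvae on high sugar, 5546 to 7436 CPM in mutant-labelled larvae on low sugar, 5284 to 6016 CPM in control larvae on high sugar and 5981 to 7234 CPM in control larvae on low sugar. These sums are nearly all Rfabg, the apolipophorin gene, since the larval serum protein genes Lsp1beta and Lsp1gamma lay between 0.0213 and 2.13 CPM in every library. On high sugar 2 of the 3 fat body markers were lower than on low sugar in larvae of either label. These were Lsp1beta (-1.25 ± 0.19, adjusted p = 5.63e-05) and Lsp1gamma (-0.61 ± 0.22, adjusted p = 0.0283) in mutant-labelled larvae and Lsp1beta (-1.47 ± 0.19, adjusted p = 5.85e-06) and Rfabg (-0.23 ± 0.089, adjusted p = 0.0297) in control larvae, as log2 differences of CPM + 0.5 with their SE in limma's test, a linear model fitted across all genes. Both Lsp1 genes lie near or under the added 0.5 in part of the libraries. Mutant-labelled against control, Lsp1gamma was lower on high sugar (-0.94 ± 0.22, adjusted p = 0.00304), and none of the 3 passed on low sugar.

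Markers of gut and muscle differed between the genotypes. Of all genes, 40.0% were called between the genotypes on high sugar and 43.8% on low sugar. Of 6 gut markers 3 were higher in mutant-labelled larvae on high sugar and 5 on low sugar, and none was lower. Their sum was 1847 to 2330 CPM in mutant-labelled larvae, against 879.7 to 1180 CPM in control larvae on high sugar. On low sugar it was 1566 to 1822 CPM in mutant-labelled larvae, against 659 to 762 CPM in control larvae. Of 5 muscle markers all 5 were lower in mutant-labelled larvae on high sugar and 3 on low sugar, with sums of 35081 to 38744 CPM in mutant-labelled larvae, against 42906 to 45551 CPM in control larvae on high sugar. Of 6 glia markers 2 were lower and none higher on high sugar, and 2 were higher and 2 lower on low sugar. With diet, 3 gut markers rose and 3 fell in mutant-labelled larvae, and 4 rose and 2 fell in control larvae. The part of these markers in the results below was not tested.

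Per length of exon, the order of the members was similar in the 4 groups at its top and varied in its middle. ImpL2 stood highest, with 52.2 ± 4.002 CPM per kb in mutant-labelled larvae on high sugar and 29.9 ± 5.97 CPM per kb in control larvae on low sugar. Ilp2 came next in every group, with 15.95 ± 1.72 and 12.3 ± 0.777 CPM per kb in these 2 groups. AkhR was the 3rd in control larvae on high sugar at 11.7 ± 0.759 CPM per kb, the 5th in mutant-labelled larvae on high sugar at 6.82 ± 0.929 CPM per kb, and the 6th in both low-sugar groups. In control larvae on high sugar the libraries of these neighbours in the order overlapped: Ilp2 (13.3 ± 1.01 CPM per kb) with AkhR, chico (9.31 ± 0.638 CPM per kb) with Akh (8.52 ± 0.638 CPM per kb), Ilp5 (5.25 ± 0.954 CPM per kb) with InR (4.46 ± 0.353 CPM per kb), and Sdr (1.31 ± 0.0980 CPM per kb) with Ilp6 (1.19 ± 0.334 CPM per kb). Ilp6 and Sdr were the lowest in all 4 groups, at 0.960 to 1.81 CPM per kb as group means.

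**Figure D1:**
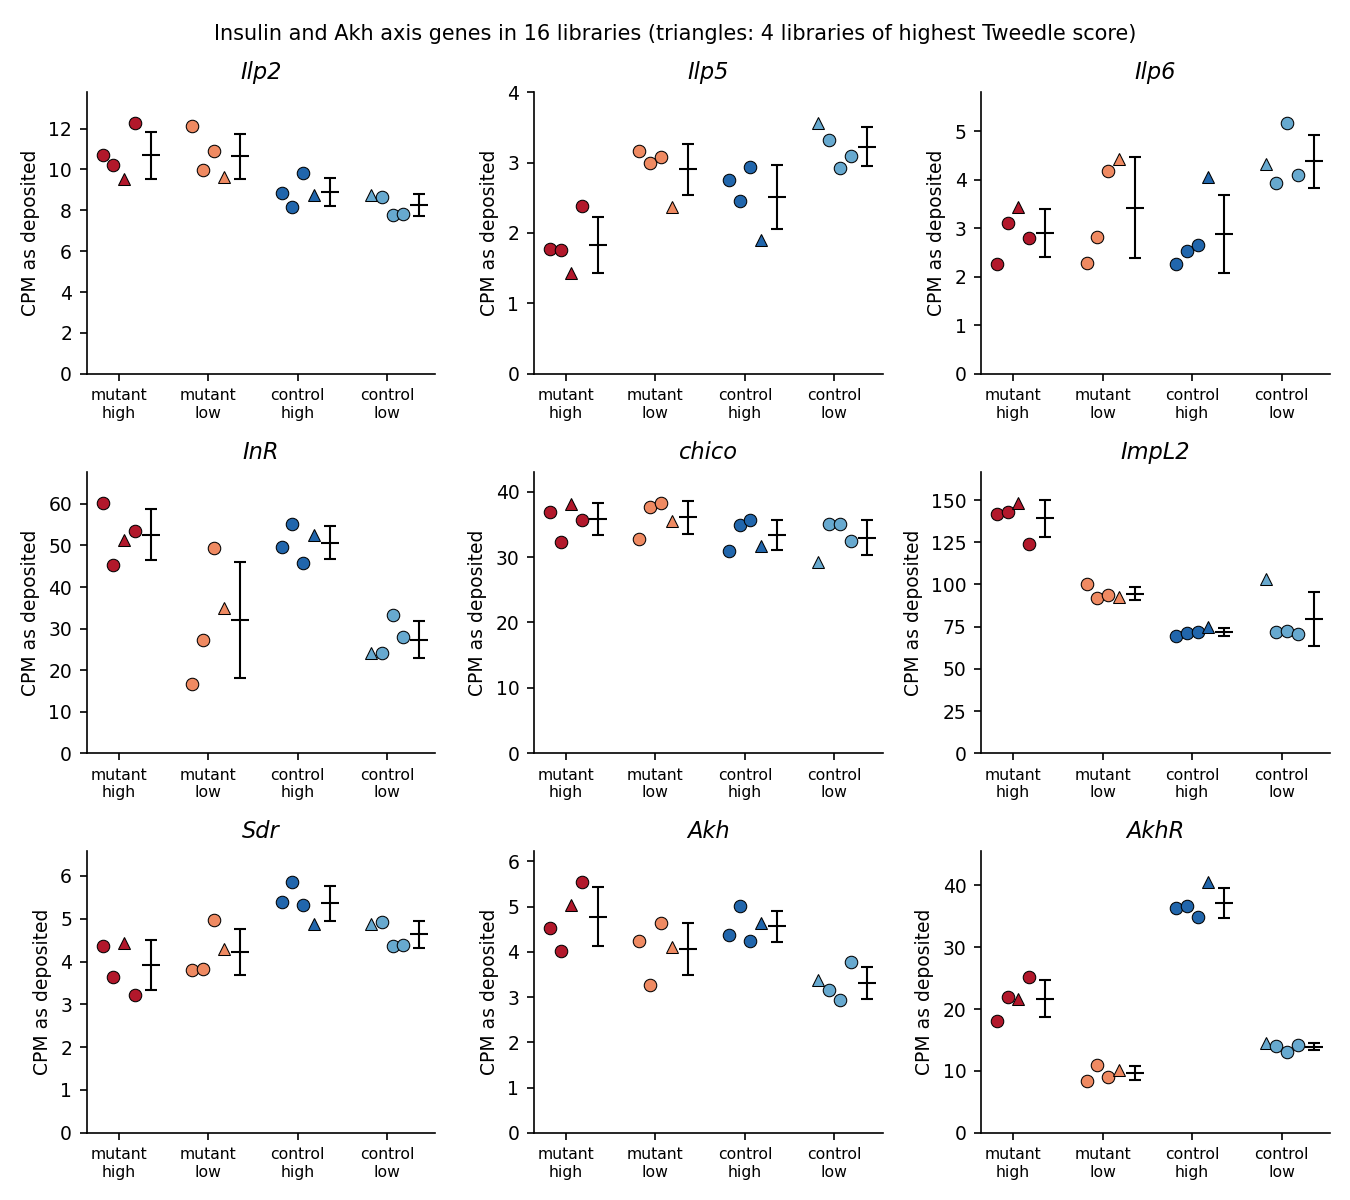
CPM as deposited (vertical axes, from 0) of the 9 members in each of the 16 libraries, with the mean and SD of each group of 4 beside the points and triangles for the 4 libraries of highest Tweedle score. AkhR separates all 4 groups on the plot, ImpL2 is highest in mutant-labelled larvae on high sugar, and InR spreads widely in mutant-labelled larvae on low sugar, from 16.6 to 49.4 CPM.

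AkhR had the largest diet response of the 9 members in larvae of both labels, and its level was lower in mutant-labelled larvae on both diets. AkhR (FBgn0025595) lies on chromosome 2L at 6711286 to 6716186, on the minus strand. It had 18.02, 21.9, 21.6 and 25.3 CPM in mutant-labelled larvae on high sugar, against 8.40, 10.99, 8.97 and 10.2 CPM in mutant-labelled larvae on low sugar. In control larvae the levels were 36.4, 36.7, 34.8 and 40.5 CPM on high sugar, against 14.5, 13.98, 13.1 and 14.2 CPM on low sugar. None of the 4 groups overlapped with another. The group means were 21.7 ± 2.96 CPM in mutant-labelled larvae on high sugar, 9.63 ± 1.17 CPM on low sugar, 37.1 ± 2.42 CPM in control larvae on high sugar and 13.9 ± 0.585 CPM on low sugar (SD, n = 4 each). The high-sugar mean was 2.25 times the low-sugar mean in mutant-labelled larvae and 2.66 times in control larvae.

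In limma's test on log2(CPM + 0.5), with Benjamini-Hochberg adjustment over all 9837 genes, the diet response of AkhR was 1.13 ± 0.093 (SE) on the log2 scale in mutant-labelled larvae (adjusted p = 1.38e-07) and 1.38 ± 0.093 in control larvae (adjusted p = 5.93e-09). Of all genes tested, 4.67% differed as much in size between the diets of control larvae. The genotype difference, mutant-labelled minus control, was -0.77 ± 0.093 on high sugar (adjusted p = 9.64e-06) and -0.52 ± 0.093 on low sugar (adjusted p = 3.61e-04). On high sugar 5 of 5 muscle and 1 of 3 fat body markers were lower too, and 3 of 6 gut markers higher. The fat body marker was Lsp1gamma, at 0.318 to 0.754 CPM in mutant-labelled larvae, against 1.23 to 1.90 CPM in control larvae. Rfabg, nearly all of the fat body sum, did not pass, with 5669 to 6836 CPM against 5282 to 6014 CPM. The part of these markers in the level of AkhR was not tested. The difference between the diet responses was -0.25 ± 0.13 with a 95% interval of -0.53 to 0.031 and did not pass (adjusted p = 0.213). Without the 4 libraries of high Tweedle score the diet responses were 1.16 (adjusted p = 1.21e-05) in mutant-labelled larvae and 1.35 (adjusted p = 1.39e-06) in control larvae.

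Akh, the ligand, rose on high sugar in control larvae. Akh (FBgn0004552) lies on chromosome 3L at 4141467 to 4142070, on the plus strand. It had 4.53, 4.02, 5.02 and 5.54 CPM in mutant-labelled larvae on high sugar, against 4.23, 3.27, 4.63 and 4.10 CPM on low sugar, and these groups overlapped. Control larvae had 4.37, 5.02, 4.24 and 4.64 CPM on high sugar, against 3.38, 3.15, 2.94 and 3.77 CPM on low sugar, with no overlap. The diet response was 0.21 ± 0.11 in mutant-labelled larvae, which did not pass (adjusted p = 0.105), and 0.41 ± 0.11 in control larvae (adjusted p = 0.00275). The difference between the 2 responses was -0.20 ± 0.15, with an interval of -0.52 to 0.12 (adjusted p = 0.388). A difference between genotypes in the response of Akh was thus not shown. Mutant-labelled minus control, Akh differed by 0.053 ± 0.11 on high sugar (adjusted p = 0.723) and by 0.25 ± 0.11 on low sugar (adjusted p = 0.0639), neither of which passed. The diet response in mutant-labelled larvae passed without mutant-labelled high-sugar replicate 2 (0.28, adjusted p = 0.0387), while the difference on low sugar passed without mutant-labelled low-sugar replicate 2 (0.34, adjusted p = 0.0145) or control low-sugar replicate 4 (0.31, adjusted p = 0.0391). In control larvae 6 of 9 neuroendocrine peptide markers were higher on high sugar too, with a median difference of 0.30. Their part in the rise of Akh was not tested.

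InR rose on high sugar in larvae of both labels and did not pass between the genotypes on either diet. InR (FBgn0283499) lies on chromosome 3R at 21570248 to 21619321, on the minus strand. This receptor tyrosine kinase had 60.3, 45.4, 51.2 and 53.5 CPM in mutant-labelled larvae on high sugar, against 16.6, 27.2, 49.4 and 35.05 CPM on low sugar. Control larvae had 49.5, 55.05, 45.7 and 52.5 CPM on high sugar, against 24.02, 24.03, 33.4 and 27.9 CPM on low sugar. The control groups did not overlap, and the mutant-labelled groups did, through low-sugar replicate 3. The diet response was 0.80 ± 0.23 (adjusted p = 0.00813) in mutant-labelled larvae and 0.89 ± 0.23 (adjusted p = 0.00293) in control larvae. Without mutant-labelled low-sugar replicate 1, the lowest of the 16 libraries, the response in mutant-labelled larvae was 0.53 (adjusted p = 0.0159). Mutant-labelled minus control, InR differed by 0.049 ± 0.23 on high sugar (adjusted p = 0.886, 95% interval -0.44 to 0.54) and by 0.13 ± 0.23 on low sugar (adjusted p = 0.664, 95% interval -0.35 to 0.62). These intervals span changes in either direction, and the SD of the mutant-labelled low-sugar group was 13.8 CPM around a mean of 32.1 CPM.

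The adaptor chico, which links InR to PI3K, passed in none of the comparisons. chico (FBgn0024248) lies on chromosome 2L at 10242512 to 10247078, on the minus strand. Its 16 libraries lay between 29.3 and 38.3 CPM, and the groups averaged 35.8 ± 2.47 CPM in mutant-labelled larvae on high sugar, 36.1 ± 2.49 CPM on low sugar, 33.3 ± 2.28 CPM in control larvae on high sugar and 32.9 ± 2.70 CPM on low sugar (SD, n = 4 each). The diet response had an interval of -0.16 to 0.14 in mutant-labelled larvae (adjusted p = 0.907) and of -0.14 to 0.17 in control larvae (adjusted p = 0.849) on the log2 scale. Exons of chico share 380 bp with an RNA on the opposite strand, asRNA:CR44995, and the strand setting of the counting is not given.

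ImpL2, the binding protein, was the member whose diet response differed between the genotypes. It was higher on high sugar in mutant-labelled larvae, did not pass in control larvae, and was higher in mutant-labelled than in control larvae on both diets. ImpL2 (FBgn0001257) lies on chromosome 3L at 4224006 to 4236147, on the minus strand. It had 142, 143, 148 and 124 CPM in mutant-labelled larvae on high sugar, against 69.2, 71.2, 71.8 and 74.8 CPM in control larvae on high sugar. On low sugar it had 101, 91.7, 93.8 and 92.3 CPM in mutant-labelled larvae, against 103, 72.00, 72.6 and 70.4 CPM in control larvae. The mutant-labelled high-sugar libraries lay above all others, and 3 of the 4 control low-sugar libraries lay in or next to the range of the control high-sugar group, with replicate 1 far above them.

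The diet response of ImpL2 was 0.55 ± 0.10 (adjusted p = 2.27e-04) in mutant-labelled larvae and -0.13 ± 0.10 (adjusted p = 0.250) in control larvae. The difference between these responses was 0.68 ± 0.14 (adjusted p = 0.00455) and remained called in all alternatives tried, with adjusted p of 5.32e-04 to 0.0113. Mutant-labelled minus control, ImpL2 differed by 0.95 ± 0.10 on high sugar (adjusted p = 1.89e-06), where the mean of mutant-labelled larvae was 1.94 times that of control larvae, and by 0.27 ± 0.10 on low sugar (adjusted p = 0.0388). Without the 4 libraries of high Tweedle score, of which control low-sugar replicate 1 is one, the difference on low sugar was 0.41 (adjusted p = 2.51e-04), and the difference between the diet responses was 0.53 (adjusted p = 0.00380). The difference on low sugar did not pass without 1 of mutant-labelled low-sugar replicate 1, 2, 3 or 4 or control low-sugar replicate 2, 3 or 4, with differences of 0.21 to 0.28 and adjusted p of 0.0550 to 0.117. Without control low-sugar replicate 1 the response of control larvae was 0.0013 (adjusted p = 0.985). Gut markers were higher in mutant-labelled larvae as well, 3 of 6 on high sugar and 5 of 6 on low sugar. Muscle markers were lower there, 5 of 5 on high sugar and 3 of 5 on low sugar. For the difference between the diet responses, 1 of 6 gut markers was called higher and 4 lower, with a median of -0.57. Of 5 muscle markers 1 was called lower for it and none higher. Of all genes, 7.92% were called higher and 8.95% lower for this difference. The part of these markers in the level of ImpL2 was not tested. The value of ImpL2 is uncertain in that its exons share 1651 bp with CG46460 on the same strand, a gene whose own values are not analysed here.

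Sdr, the secreted decoy of InR, was lower in mutant-labelled than in control larvae on high sugar. Sdr (FBgn0038279) lies on chromosome 3R at 14918628 to 14923083, on the plus strand. It had 4.36, 3.64, 4.43 and 3.21 CPM in mutant-labelled larvae on high sugar, against 5.39, 5.85, 5.32 and 4.87 CPM in control larvae on high sugar, with no overlap. On low sugar the levels were 3.798, 3.83, 4.97 and 4.29 CPM in mutant-labelled larvae, against 4.88, 4.92, 4.36 and 4.38 CPM in control larvae, and the groups overlapped. The genotype difference was -0.42 ± 0.10 (adjusted p = 0.00342) on high sugar and -0.13 ± 0.10 (adjusted p = 0.321) on low sugar. Neither diet response passed, with -0.10 ± 0.10 (adjusted p = 0.416) in mutant-labelled larvae and 0.19 ± 0.10 (adjusted p = 0.103) in control larvae, and the difference between them was -0.29 ± 0.14 (adjusted p = 0.175). The diet response in control larvae passed with only the 8 libraries compared in the fit (0.19, adjusted p = 0.0402). Beside the lower Sdr on high sugar, 5 of 5 muscle markers and 2 of 6 glia markers were lower in mutant-labelled larvae, and 3 of 6 gut markers were higher. The part of these markers in the level of Sdr was not tested. ImpL2 and Sdr, which both lower insulin signalling in flies, thus differed in opposite directions between the genotypes on high sugar.

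Of the insulin-like peptides, Ilp2 was higher in mutant-labelled larvae on both diets and passed for diet in neither genotype. Ilp2 (FBgn0036046) lies on chromosome 3L at 9799698 to 9800440, on the plus strand. It had 10.7, 10.2, 9.55 and 12.3 CPM in mutant-labelled larvae on high sugar, against 8.87, 8.17, 9.81 and 8.77 CPM in control larvae on high sugar. On low sugar it had 12.1, 9.97, 10.9 and 9.63 CPM in mutant-labelled larvae, against 8.76, 8.65, 7.79 and 7.83 CPM in control larvae. The genotypes did not overlap on low sugar and overlapped on high sugar, where mutant-labelled replicate 3 lay below control replicate 3. The genotype difference was 0.25 ± 0.084 (adjusted p = 0.0278) on high sugar and 0.35 ± 0.084 (adjusted p = 0.00368) on low sugar. The difference on high sugar did not pass without 1 of mutant-labelled high-sugar replicate 1 or 4 or control high-sugar replicate 1, 2 or 4, with differences of 0.18 to 0.25 and adjusted p of 0.0548 to 0.0983. The diet response of Ilp2 had intervals of -0.17 to 0.18 in mutant-labelled larvae (adjusted p = 0.970) and -0.077 to 0.28 in control larvae (adjusted p = 0.294). On low sugar, 5 of 9 neuroendocrine peptide markers were higher in mutant-labelled larvae as well, with a median difference of 0.19. On high sugar 1 was higher and 1 lower, with a median of -0.016. Of 6 neuron markers, 4 were higher in mutant-labelled larvae on low sugar, with a median of 0.31, and none was lower. On high sugar 1 neuron marker was higher and none lower, with a median of 0.042. The part of these markers in the difference of Ilp2 was not tested.

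Ilp5, which the same brain cells make, fell on high sugar in larvae of both labels. Ilp5 (FBgn0044048) lies on chromosome 3L at 9823349 to 9823897, on the minus strand. It had 1.77, 1.76, 1.43 and 2.38 CPM in mutant-labelled larvae on high sugar, against 3.17, 2.99, 3.08 and 2.37 CPM on low sugar. Control larvae had 2.75, 2.46, 2.94 and 1.89 CPM on high sugar, against 3.56, 3.32, 2.92 and 3.09 CPM on low sugar. The groups overlapped in both genotypes, in mutant-labelled larvae through replicate 4 of each diet. The diet response was -0.55 ± 0.13 (adjusted p = 0.00233) in mutant-labelled larvae and -0.32 ± 0.13 (adjusted p = 0.0431) in control larvae. Mutant-labelled minus control, Ilp5 differed by -0.37 ± 0.13 (adjusted p = 0.0346) on high sugar and -0.13 ± 0.13 (adjusted p = 0.434) on low sugar. Without the 4 libraries of high Tweedle score the responses were -0.55 (adjusted p = 0.00135) in mutant-labelled larvae and -0.17 (adjusted p = 0.188) in control larvae, so that the call in control larvae was lost. While Ilp5 fell, 3 of 9 neuroendocrine peptide markers were higher on high sugar in mutant-labelled larvae and 6 of 9 in control larvae, with none lower. Their part in the level of Ilp5 was not tested.

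The fall of Ilp5 in control larvae also did not pass with the replicate number as a block (-0.32, adjusted p = 0.0576), under median-ratio scaling (-0.30, adjusted p = 0.0565) or with the Tweedle score as a covariate (-0.29, adjusted p = 0.0520). Nor did it pass without 1 of mutant-labelled high-sugar replicate 1 or 2, mutant-labelled low-sugar replicate 2, control high-sugar replicate 2 or 4 or control low-sugar replicate 1, 2 or 4, with differences of -0.33 to -0.21 and adjusted p of 0.0512 to 0.156. Control high-sugar replicate 4 gave the smallest of these differences (-0.21, adjusted p = 0.156). The lower level in mutant-labelled larvae on high sugar did not pass under quantile normalization (-0.34, adjusted p = 0.0745), with only the 8 libraries compared (-0.37, adjusted p = 0.0698), or without 1 of mutant-labelled high-sugar replicate 1, 2 or 3 or control high-sugar replicate 1, 2 or 3, with differences of -0.37 to -0.28 and adjusted p of 0.0603 to 0.113.

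Ilp6 fell on high sugar in control larvae. Ilp6 (FBgn0044047) lies on chromosome X at 2331493 to 2334658, on the minus strand. It had 2.26, 3.11, 3.44 and 2.80 CPM in mutant-labelled larvae on high sugar, against 2.28, 2.82, 4.18 and 4.42 CPM on low sugar. Control larvae had 2.27, 2.54, 2.65 and 4.07 CPM on high sugar, against 4.32, 3.93, 5.17 and 4.10 CPM on low sugar. The control groups overlapped through high-sugar replicate 4, and the mutant-labelled low-sugar libraries were spread over both. The diet response was -0.18 ± 0.19 in mutant-labelled larvae, which did not pass (adjusted p = 0.446), and -0.55 ± 0.19 in control larvae (adjusted p = 0.0169). The difference between them was 0.37 ± 0.27 with an interval of -0.19 to 0.94 (adjusted p = 0.368). The fall in control larvae did not pass without control high-sugar replicate 1 (-0.46, adjusted p = 0.0552) or control low-sugar replicate 3 (-0.48, adjusted p = 0.0529), and it was -0.71 (adjusted p = 0.00407) without the 4 libraries of high Tweedle score. Between the genotypes Ilp6 did not pass, with 0.024 ± 0.19 (adjusted p = 0.934) on high sugar and -0.35 ± 0.19 (adjusted p = 0.147) on low sugar. With the Tweedle score as a covariate the lower level on low sugar passed (-0.44, adjusted p = 0.0223), and without the 4 libraries it did not (-0.47, adjusted p = 0.0529). Beside the fall in control larvae, 2 of 3 fat body markers were lower on high sugar and 5 of 6 glia markers higher, and their part in it was not tested.

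**Figure D2:**
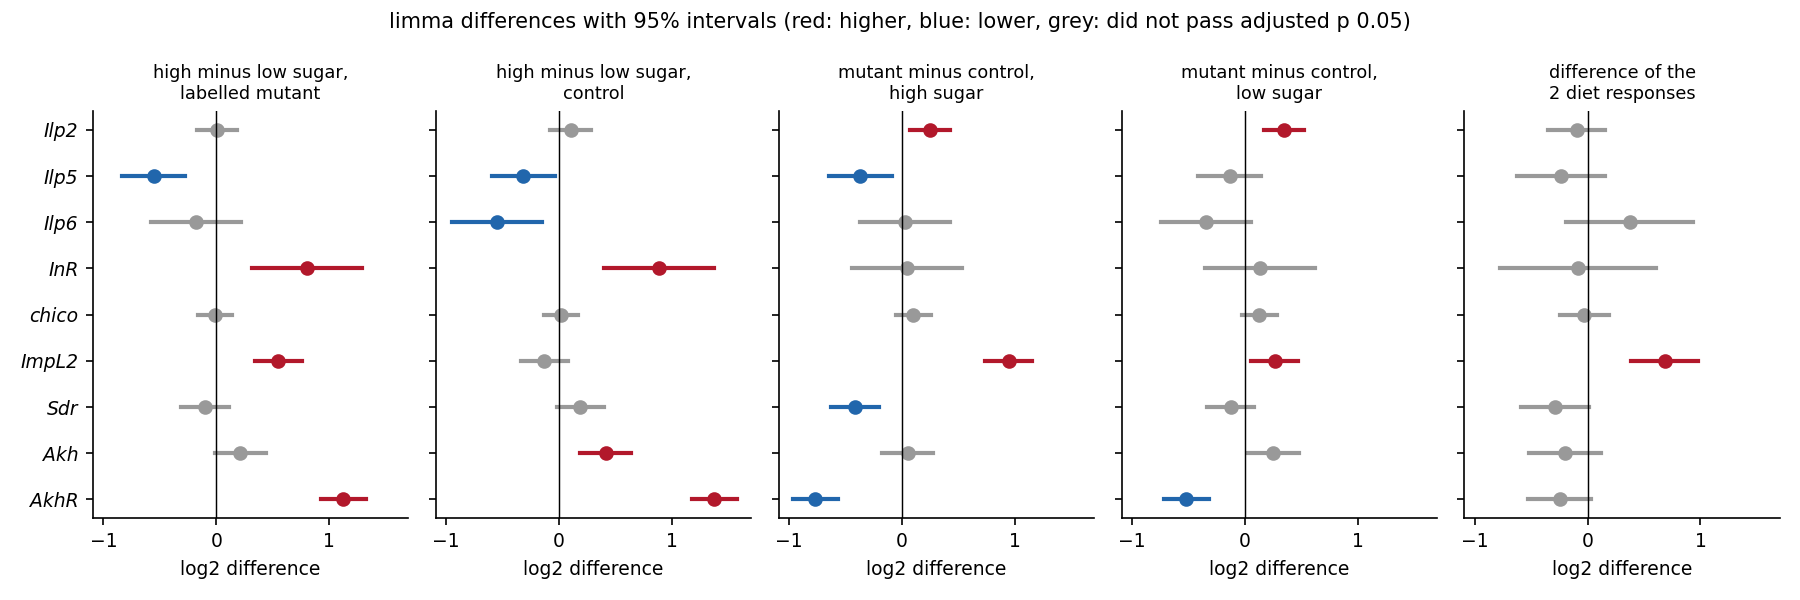
log2 differences from limma (horizontal axes) of the 9 members in the 5 comparisons, as points with 95% intervals, red where higher, blue where lower and grey where adjusted p did not pass 0.05. In the panel of the difference between the diet responses, the interval of ImpL2 (0.39 to 0.98) lies apart from 0, and the intervals of InR are the widest of each panel.

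A large share of all genes differed in these comparisons, and the counts of members called are set beside that share. Between high and low sugar, 3 of 9 members rose, 1 fell and 5 did not pass in mutant-labelled larvae. Of all genes, 52.1% were called there, 22.5% higher and 29.5% lower. In control larvae 3 of 9 members rose, 2 fell and 4 did not pass, where 67.9% of all genes were called, 33.1% higher and 34.8% lower. Mutant-labelled against control, 2 members were higher, 3 lower and 4 did not pass on high sugar. There 40.0% of all genes were called, 21.1% higher and 18.9% lower. On low sugar 2 members stood higher and 1 lower, with 6 that did not pass, against 43.8% of all genes called, 23.1% higher and 20.8% lower. Of the 5 calls on high sugar between the genotypes, 3 were left without mutant-labelled high-sugar replicate 1, control high-sugar replicate 1 or control high-sugar replicate 2. The difference between the diet responses passed for 1 of 9 members, ImpL2, and for 16.9% of all genes, 7.92% higher and 8.95% lower. That share came from 1659 genes and was 790 genes without the 4 libraries of high Tweedle score and 1921 genes with the score as a covariate. With any 1 library left out the count was 1196 to 2451 genes, the most without mutant-labelled low-sugar replicate 1. Groups that did not overlap were seen for 2 members between the diets in mutant-labelled larvae (ImpL2 and AkhR, against 45.2% of all genes) and for 3 in control larvae (InR, Akh and AkhR, against 64.2%). Between the genotypes they were seen for 3 members on high sugar (ImpL2, Sdr and AkhR, against 40.1%) and for 2 on low sugar (Ilp2 and AkhR, against 37.3%). The median difference of the members was 0.0044 between the diets in mutant-labelled larvae and 0.10 in control larvae, and 0.049 and 0.13 between the genotypes on high and on low sugar, while the median of all genes lay within 0.01 of 0 in each. In the authors' deposited table, the call at 0.05 was the same for all 36 pairs of a member and a comparison of 2 groups.

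**Figure D3:**
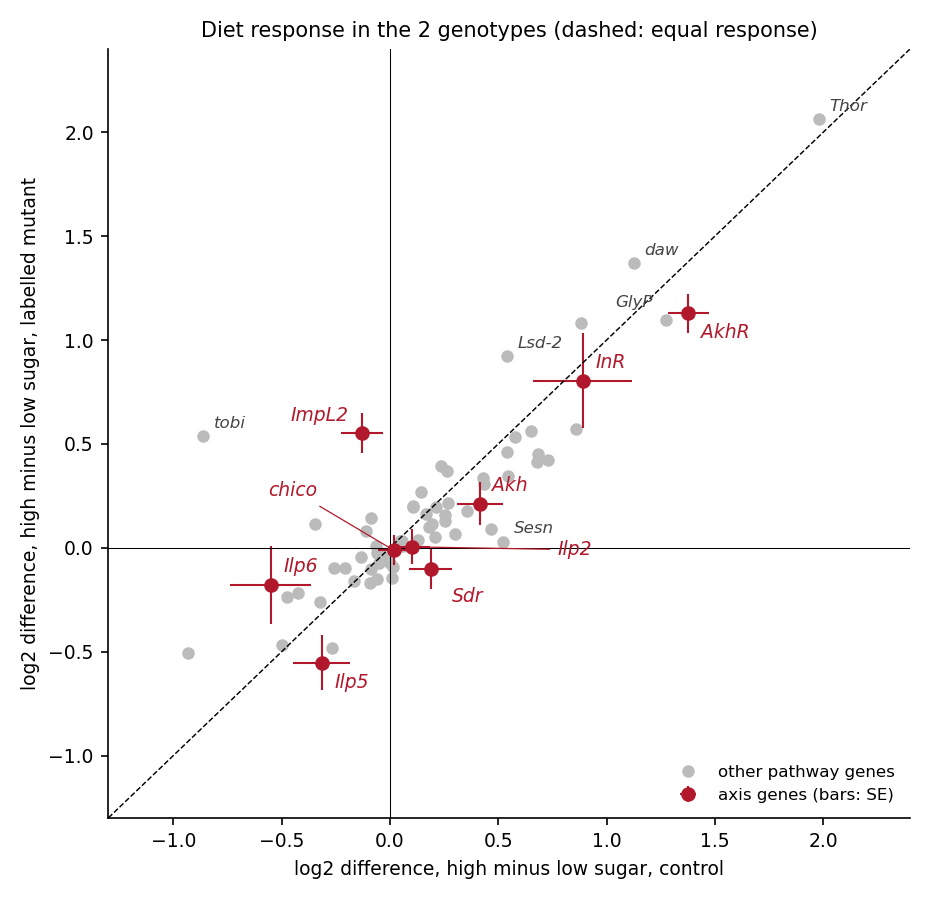
Diet response on the log2 scale in mutant-labelled larvae (vertical axis) against that in control larvae (horizontal axis) for the 9 members (red, bars are SE) and the other genes of the pathway (grey); the dashed line marks equal responses. ImpL2 lies far above the line at 0.55 against -0.13, tobi does as well, and AkhR and InR lie near it at the upper right.

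Among the genes that carry the insulin signal inside the cell, the PI3K and Akt branch moved in both directions with diet. The counts of this and the following lists stand against 22.5% of all genes higher and 29.5% lower on high sugar in mutant-labelled larvae, and 33.1% higher and 34.8% lower in control larvae. In mutant-labelled larvae 5 of 12 rose, 3 fell and 4 did not pass (median 0.067). In control larvae 5 of 12 rose, 2 fell and 5 did not pass (median 0.095). Pdk1, the kinase that activates Akt, rose by 0.56 ± 0.083 (adjusted p = 4.30e-05) in mutant-labelled larvae and by 0.65 ± 0.083 (adjusted p = 5.02e-06) in control larvae. The adaptor Lnk rose by 0.34 ± 0.059 (adjusted p = 2.14e-04) and 0.43 ± 0.059 (adjusted p = 1.17e-05) in these groups. Pi3K21B, the regulatory subunit of PI3K, differed by -0.47 ± 0.066 (adjusted p = 3.04e-05) and -0.50 ± 0.066 (adjusted p = 7.50e-06), and Pi3K92E, the catalytic subunit, which was named after its values were seen, by 0.35 ± 0.078 (adjusted p = 0.00156) and 0.55 ± 0.078 (adjusted p = 1.54e-05). The 2 subunits of the lipid kinase thus differed in opposite directions with diet in larvae of both labels.

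Tsc1, a brake on the growth kinase TOR, differed by -0.22 ± 0.042 (adjusted p = 4.38e-04) with diet in mutant-labelled larvae and by -0.43 ± 0.042 (adjusted p = 2.94e-07) in control larvae. These responses differed between the genotypes (0.21 ± 0.059, adjusted p = 0.0262). Between the genotypes, 3 of 12 were higher in mutant-labelled larvae, 0 were lower and 9 did not pass on high sugar, and 3 of 12 were higher and 1 was lower, while 8 did not pass on low sugar. Lnk, with 0.16 ± 0.059 (adjusted p = 0.0401) on high sugar and 0.25 ± 0.059 (adjusted p = 0.00284) on low sugar, and gig, the partner of Tsc1, with 0.25 ± 0.075 (adjusted p = 0.0135) and 0.27 ± 0.075 (adjusted p = 0.00956), were higher on both diets. In the Ras branch, which InR also feeds, 1 of 6 rose, 1 fell and 4 did not pass with diet in mutant-labelled larvae and 1 of 6 rose, 0 fell and 5 did not pass in control larvae.

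Of 6 genes known as targets of foxo, 2 of 6 rose, 1 fell and 3 did not pass with diet in mutant-labelled larvae, and 3 of 6 rose, 2 fell and 1 did not pass in control larvae. Thor, the translational repressor 4E-BP, had 294, 279.9, 274 and 314 CPM in mutant-labelled larvae on high sugar, against 39.98, 74.7, 93.8 and 80.7 CPM on low sugar. It had 229, 298, 299.6 and 378 CPM in control larvae on high sugar, against 164, 35.9, 109.6 and 48.01 CPM on low sugar. It thus rose with no overlap in either genotype, by 2.06 ± 0.38 (adjusted p = 2.98e-04) in mutant-labelled larvae and by 1.98 ± 0.38 (adjusted p = 2.54e-04) in control larvae. Lip4, a lipase, fell, with -0.51 ± 0.14 (adjusted p = 0.00634) and -0.93 ± 0.14 (adjusted p = 2.59e-05). chrb, an inhibitor of TOR, rose, with 0.31 ± 0.064 (adjusted p = 8.38e-04) and 0.43 ± 0.064 (adjusted p = 2.21e-05). Sesn, another inhibitor of TOR, differed by 0.029 ± 0.055 (adjusted p = 0.683) in mutant-labelled larvae and by 0.52 ± 0.055 (adjusted p = 7.25e-07) in control larvae. The difference between these responses passed (-0.49 ± 0.078, adjusted p = 9.46e-04). The list thus moved in both directions.

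**Figure D4:**
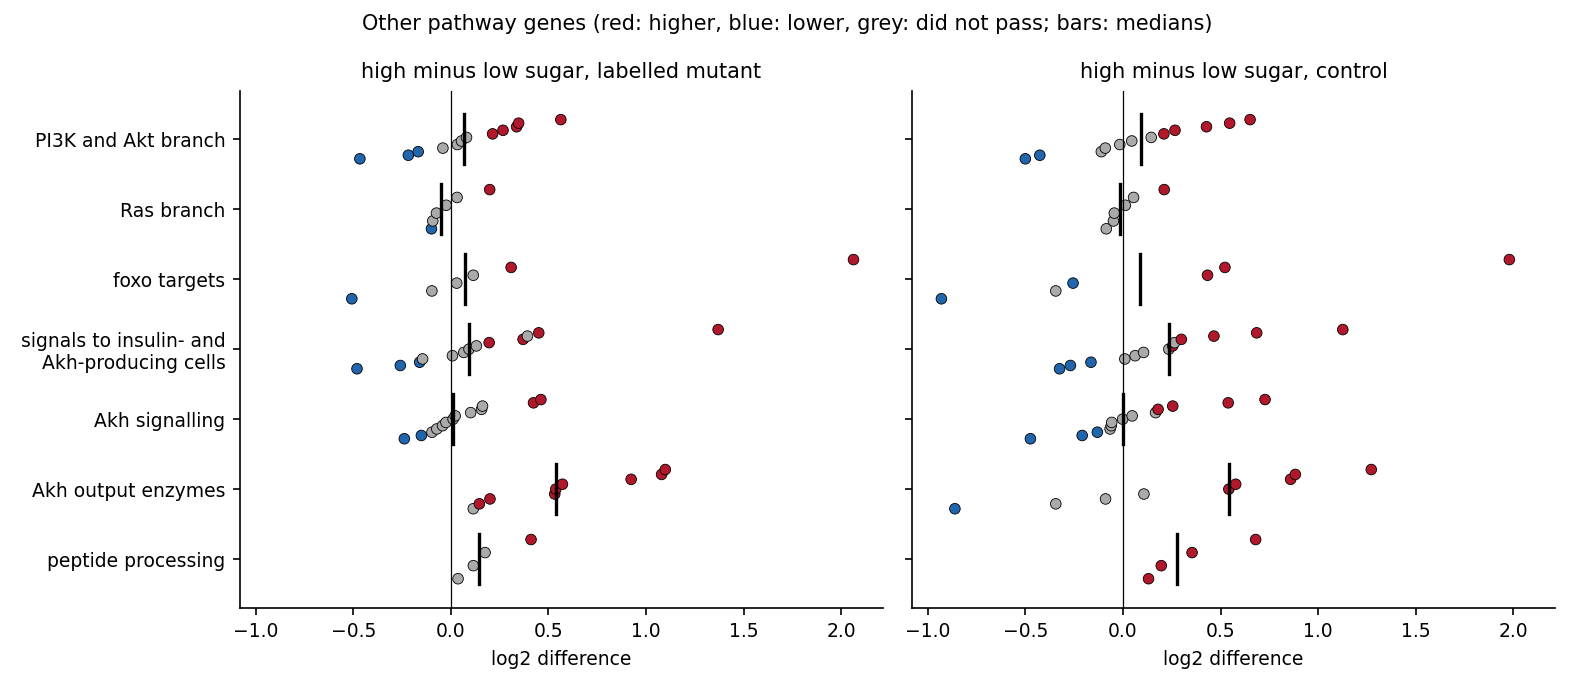
log2 diet differences (horizontal axes) of the other genes of the insulin and Akh pathways by list, in mutant-labelled larvae (left) and control larvae (right), with 1 point per gene coloured by call and a bar at each list's median. The Akh output enzymes have medians of 0.54 and 0.54, with genes on both sides of 0 in control larvae. The medians of the other lists lie closer to 0.

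Signals from fat body and gut to the cells that make insulin-like peptides and Akh, and the receptors of these signals, were called in both directions. Of 14 such genes 13 were tested, and with diet 4 of 13 rose, 3 fell and 6 did not pass in mutant-labelled larvae and 5 of 13 rose, 3 fell and 5 did not pass in control larvae. The activin-like ligand daw rose most in size, with 1.37 ± 0.078 (adjusted p = 2.28e-09) and 1.13 ± 0.078 (adjusted p = 7.21e-09). CCHa2, a peptide of fat body and gut that promotes insulin release, rose with 0.45 ± 0.08 (adjusted p = 2.47e-04) in mutant-labelled larvae and 0.69 ± 0.08 (adjusted p = 2.12e-06) in control larvae. It was lower in mutant-labelled than in control larvae, with -0.77 ± 0.08 (adjusted p = 2.23e-06) on high sugar and -0.53 ± 0.08 (adjusted p = 7.64e-05) on low sugar. NPF, a peptide of gut and brain, was higher in mutant-labelled larvae, with 0.42 ± 0.093 (adjusted p = 0.00195) on high sugar and 0.80 ± 0.093 (adjusted p = 6.39e-06) on low sugar. No gene of this list passed for the difference between the diet responses. In peptide processing, which matures prohormones, 1 of 4 rose, 0 fell and 3 did not pass with diet in mutant-labelled larvae. All 4 tested genes rose in control larvae. Pal2 led both, with 0.41 ± 0.063 (adjusted p = 6.58e-05) and 0.68 ± 0.063 (adjusted p = 1.71e-07). The neuron markers moved with these genes, with 3 of 6 higher on high sugar in mutant-labelled larvae and 5 of 6 in control larvae, and their part was not tested.

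Downstream of AkhR, of 13 genes of Akh signalling 2 rose, 2 fell and 9 did not pass with diet in mutant-labelled larvae, and 4 rose, 3 fell and 6 did not pass in control larvae. The calcium channel gene olf186-F, known as Orai, rose by 0.42 ± 0.05 (adjusted p = 4.95e-06) in mutant-labelled larvae and by 0.73 ± 0.05 (adjusted p = 6.69e-09) in control larvae. Its responses differed between the genotypes (-0.31 ± 0.07, adjusted p = 0.00943). Sik3, a kinase that restrains fat release, rose by 0.46 ± 0.093 (adjusted p = 6.76e-04) and 0.54 ± 0.093 (adjusted p = 1.02e-04). Lkb1, the kinase that activates Sik3, fell, with -0.24 ± 0.051 (adjusted p = 0.00112) and -0.47 ± 0.051 (adjusted p = 8.71e-07). Between the genotypes on high sugar, 1 of 13 was higher in mutant-labelled larvae, 5 were lower and 7 did not pass, against 21.1% of all genes higher and 18.9% lower. On low sugar 4 of 13 were higher, 4 were lower and 5 did not pass, against 23.1% of all genes higher and 20.8% lower. The regulatory subunit gene Pka-R2 of protein kinase A was higher in mutant-labelled larvae, with 0.28 ± 0.038 (adjusted p = 3.77e-05) on high sugar and 0.20 ± 0.038 (adjusted p = 6.94e-04) on low sugar. The phospholipase C gene norpA was lower, with -0.32 ± 0.07 (adjusted p = 0.00177) and -0.25 ± 0.07 (adjusted p = 0.00915).

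Genes of fat and sugar storage and release, on which Akh acts, were called mostly higher on high sugar in mutant-labelled larvae and in both directions in control larvae. Of 9 genes, 8 rose, 0 fell and 1 did not pass in mutant-labelled larvae, where 22.5% of all genes were called higher. In control larvae 5 rose, 1 fell and 3 did not pass, where 67.9% of all genes were called, 33.1% higher. The 6 of 9 called there are near that background. The list had medians of 0.54 and 0.54 in mutant-labelled and control larvae, against a median near 0 of all genes. GlyP, the enzyme that breaks down glycogen, rose by 1.10 ± 0.074 (adjusted p = 1.54e-08) in mutant-labelled larvae and by 1.27 ± 0.074 (adjusted p = 1.33e-09) in control larvae. GlyS, which builds glycogen, rose by 0.53 ± 0.048 (adjusted p = 3.73e-07) and 0.58 ± 0.048 (adjusted p = 5.03e-08). The lipid droplet proteins Lsd-1, with 1.08 ± 0.076 (adjusted p = 2.24e-08) and 0.88 ± 0.076 (adjusted p = 6.89e-08), and Lsd-2, with 0.92 ± 0.075 (adjusted p = 1.24e-07) and 0.54 ± 0.075 (adjusted p = 1.22e-05), rose too. The responses of Lsd-2 differed between the genotypes (0.38 ± 0.11, adjusted p = 0.0244). The genes of release did not all move this way. The lipases bmm and Hsl and the trehalase Treh are named here after their values were seen. bmm passed in neither group (0.11 ± 0.20, adjusted p = 0.665 in mutant-labelled larvae and -0.34 ± 0.20, adjusted p = 0.147 in control larvae). Hsl rose by 0.20 ± 0.067 (adjusted p = 0.0206) in mutant-labelled larvae and differed by 0.11 ± 0.067 (adjusted p = 0.169) in control larvae. Treh rose by 0.15 ± 0.057 (adjusted p = 0.0440) in mutant-labelled larvae and differed by -0.09 ± 0.057 (adjusted p = 0.178) in control larvae. The alpha-glucosidase tobi had 0.596, 0.344, 0.635 and 0.615 CPM in mutant-labelled larvae on high sugar, against 0.217, 0.0939, 0.287 and 0.287 CPM on low sugar. It had 6.74, 8.57, 7.06 and 8.81 CPM in control larvae on high sugar, against 14.01, 17.4, 14.1 and 12.8 CPM on low sugar. With diet it rose by 0.54 ± 0.13 (adjusted p = 0.00262) in mutant-labelled larvae and differed by -0.86 ± 0.13 (adjusted p = 2.66e-05) in control larvae, where it fell. Between the genotypes it differed by -2.99 ± 0.13 on high sugar (adjusted p = 7.48e-11) and by -4.39 ± 0.13 on low sugar (adjusted p = 6.98e-13), on a scale whose pseudocount of 0.5 exceeds or nears its level in mutant-labelled larvae.

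**Figure D5:**
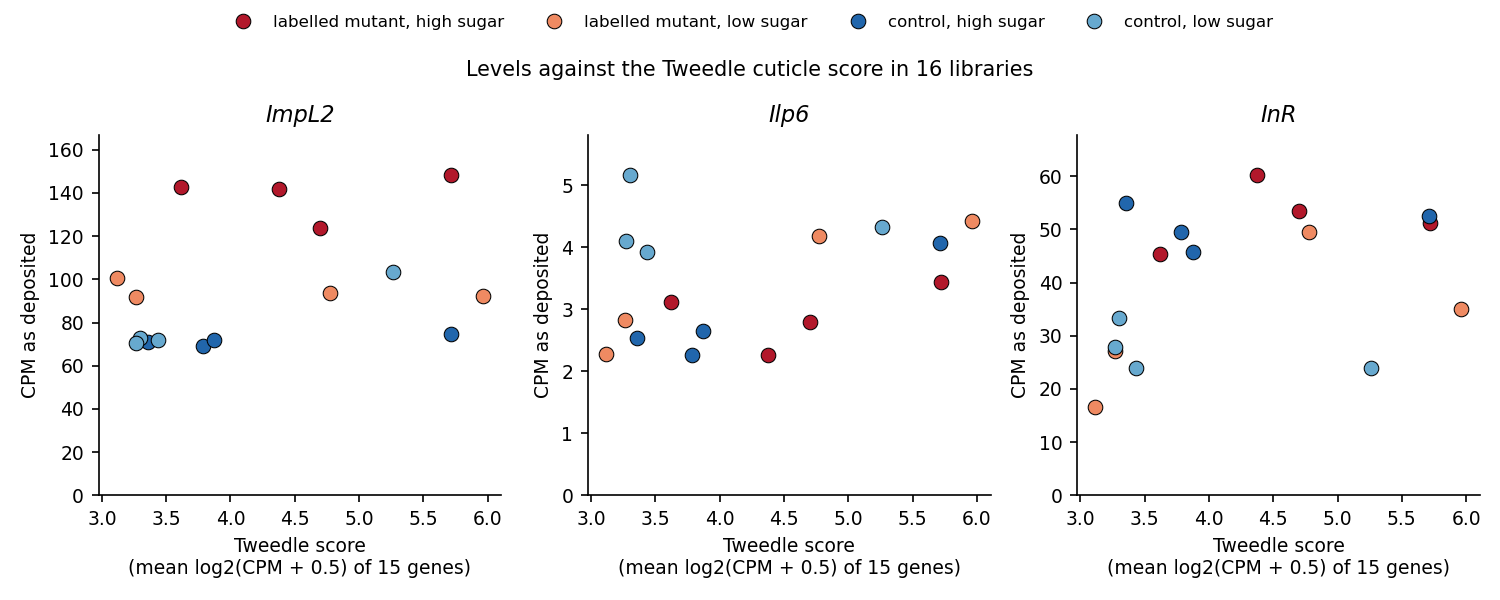
CPM as deposited (vertical axes, from 0) of ImpL2, Ilp6 and InR against the Tweedle score (horizontal axes, mean log2(CPM + 0.5) of 15 genes) in the 16 libraries, coloured by group. Ilp6 is highest of its group in 3 of the 4 libraries of high score, and the mutant-labelled high-sugar libraries keep the highest ImpL2 at every score.

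The libraries of high Tweedle score stood at the edge of their groups for some members. Ilp6 was the highest of its group in mutant-labelled high-sugar replicate 3, mutant-labelled low-sugar replicate 4 and control high-sugar replicate 4, and Ilp5 was the lowest of its group in the same 3 libraries. ImpL2 was the highest of its group in mutant-labelled high-sugar replicate 3, control high-sugar replicate 4 and control low-sugar replicate 1. Without the 4 libraries the diet response of InR was 0.89 (adjusted p = 0.0246) in mutant-labelled larvae and 0.81 (adjusted p = 0.0282) in control larvae, and that of Akh in control larvae was 0.42 (adjusted p = 0.0203). The genotype differences without them were 0.29 (adjusted p = 0.0298) on high sugar and 0.42 (adjusted p = 0.00438) on low sugar for Ilp2, -0.39 (adjusted p = 0.0138) on high sugar for Ilp5 and -0.51 (adjusted p = 0.00492) on high sugar for Sdr. For AkhR they were -0.73 (adjusted p = 4.76e-04) on high sugar and -0.53 (adjusted p = 0.00370) on low sugar.

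The genes whose levels followed each member most closely over the 16 libraries are given with Pearson's r of log2(CPM + 0.5), as a description, since all genes share the 4 groups, the libraries and their depth. For AkhR they were retm (r = 0.981), Mpc1 (r = 0.978) and FASN2 (r = 0.977), of which Mpc1 is a subunit of the mitochondrial pyruvate carrier and FASN2 a fatty acid synthase. For InR they were bark (r = 0.964), CG6701 (r = 0.959) and CG7337 (r = 0.958). For ImpL2 they were CG31436 (r = 0.941), CG14695 (r = 0.928) and Hmgs (r = 0.920), of which Hmgs makes a precursor of the mevalonate pathway. For Akh they were CG8300 (r = 0.920), Aplip1 (r = 0.911) and Arr1 (r = 0.902), and for Ilp2 CG34290 (r = 0.918), CIA30 (r = 0.902) and ND-B14 (r = 0.900). The closest genes had lower r for Ilp5, with CG4537 (r = 0.884), CG17928 (r = 0.884) and CG12428 (r = 0.882), and for chico, with FoxK (r = 0.893), CG42346 (r = 0.871) and kek5 (r = 0.865). They were lowest for Ilp6, with CG42747 (r = 0.849), CG9372 (r = 0.813) and aop (r = 0.804), and for Sdr, with CG9593 (r = 0.847), up (r = 0.833) and CG15153 (r = 0.831).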

How the data were processed

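Whole larvae gave 16 RNA libraries, 4 in each group that the labels define by genotype and diet. Per the labels' protocols, rRNA was depleted, the kit kept strand, and 75 bp single-end reads came from 2 technical runs, at a stated mean of 30 M reads (M for mega). Tools named in the submitters' processing notes are Trimmomatic, TopHat2 2.1.0, HTSeq and limma. The sources used here give neither the build nor the annotation of the counting. The deposited values, CPM by their name, were taken as a signal whose scaling is unknown, since 9 of 16 columns exceed the sum that CPM can reach. Beside them stand the authors' own log2 coefficients, test statistics (scores) and p-values; the authors' model is not stated. Within a library all values were whole multiples of 1 step (tolerance 1e-06 reads), and this step gave the depth. A count test had been planned in case recovered whole reads qualified. It was not used, and limma's test on the log2 values was kept. The recovered reads gave the depth, the reads per gene and the comparison of replicate pairs. Pairs of replicates, 24 in all, differed by more than counting noise (chi-square per degree of freedom 13.9 to 127).

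Of the 9863 genes, the 9837 that reached 1 CPM in at least 4 libraries entered limma 3.58.1 (R 4.3.3) as log2(CPM + 0.5). The model had a mean for each group, contrasts.fit and a trended eBayes. It left 12 residual degrees of freedom beside 2.97 prior ones. All tests were two-sided, with Benjamini-Hochberg adjustment over the tested genes of each of the 5 comparisons and a threshold of 0.05. The plan had assumed CPM; its test also suits a signal. The script was tested on simulated data. Python 3.11.15, numpy 2.4.6, pandas 2.3.3 and matplotlib 3.10.9 made the tables and figures. Positions and exon lengths are those of BDGP6 in Ensembl release 115, which holds 9728 of the IDs.

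The members, 8 pathway lists (72 entries, 63 of them in the table) and 7 marker lists were chosen with earlier results of these data known. The text names the members, cwo, at most the 3 genes of lowest adjusted p per list and comparison, and the 3 genes with the highest Pearson r to a member. From these a selection was made after the values were seen. Outside this rule, Pi3K92E, bmm, Hsl and Treh were named after their values were seen. The fat body markers Rfabg, Lsp1beta and Lsp1gamma are also named outside it. Of 3, 6 and 5 tested markers of neuroendocrine processing, glia and muscle, 1, 3 and 0 were higher on high sugar in mutant-labelled larvae and 3, 5 and 4 in control larvae, with none lower. Of the 3 of neuroendocrine processing, 1 was lower on high sugar and 2 were higher on low sugar in mutant-labelled than in control larvae. These 3 genes are also in the pathway list of peptide processing, so the marker list and that list are not independent. In the same way, 1 neuroendocrine peptide marker is also in the list of signals. A planned count of promoter motifs was not made. Alternatives changed the pseudocount, the filter, the scaling, the eBayes setting or the libraries used, added the replicate number as a block, or treated the Tweedle score as a covariate.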

Additional observations from a re-analysis of the deposited data

Results flagged for a closer look

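In 4 of 52 groups of 4 libraries examined (the 9 members, cwo, Thor, tobi and the Tweedle score), 1 library lay far from the others, where chance flags about 1 in 20. ImpL2 in control larvae on low sugar stood at 103.5 CPM in replicate 1, with the next at 72.6 CPM and the lowest at 70.4 CPM. The Tweedle score of the same library was 5.26, with the next of its group at 3.44 and the lowest at 3.27. cwo in mutant-labelled larvae on low sugar stood at 138.65 CPM in its lowest library, replicate 1, with the next at 192 CPM. tobi in mutant-labelled larvae on high sugar stood at 0.344 CPM in its lowest library, with the next at 0.596 CPM.

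The diet response, mutant-labelled minus control on the log2 scale, differed between the genotypes in limma's test for 7 of 72 genes examined, the members, cwo and the list genes. Of all genes, 16.9% were called. For ImpL2 the difference was 0.68 ± 0.14 (adjusted p = 0.00455). Of the Akh outputs, it was 1.40 ± 0.18 (adjusted p = 2.23e-04) for tobi, whose mutant-labelled libraries are near or under the pseudocount, and 0.38 ± 0.11 (adjusted p = 0.0244) for Lsd-2. It was -0.31 ± 0.07 (adjusted p = 0.00943) for olf186-F and 0.24 ± 0.073 (adjusted p = 0.0381) for Lkb1 in Akh signalling. In the insulin branch and among foxo targets it was 0.21 ± 0.059 (adjusted p = 0.0262) for Tsc1 and -0.49 ± 0.078 (adjusted p = 9.46e-04) for Sesn.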

How the results depend on the processing

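Of 45 member differences 18 were called, and 13 of these kept their call and direction in all 28 alternatives of a comparison of 2 groups or 27 of the difference between responses. The other 5 lost the call in at least 1 and none turned in direction: Ilp2 on high sugar, Ilp5 on high sugar and ImpL2 on low sugar between the genotypes, and Ilp5 and Ilp6 between the diets of control larvae. ImpL2 on low sugar did not pass under quantile normalization (0.20, adjusted p = 0.0984), with only the 8 libraries compared (0.27, adjusted p = 0.110) or with the Tweedle score as a covariate (0.24, adjusted p = 0.0506). Ilp5 lost its call between the diets of control larvae under median-ratio scaling and with the covariate, and on high sugar between the genotypes under quantile normalization and with only the 8 libraries. Of the 27 uncalled differences, 10 turned in sign and 4 were called in at least 1 alternative (Akh between the diets of mutant-labelled larvae and on low sugar, Ilp6 on low sugar and Sdr between the diets of control larvae). With the filter at a mean of at least 5 CPM, fewer members were tested, and 2 (in place of 5) were called between the diets of control larvae and 3 (in place of 5) between the genotypes on high sugar. Leaving out 1 library gave 3 to 5 members called between the genotypes on high sugar. Without the 4 libraries of high Tweedle score 790 genes, in place of 1659, were called for the difference between responses, in a fit with fewer libraries. With the score as a covariate there were 1921, and with any 1 library left out 1196 to 2451.

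Uncalled values that turned in sign were small. For chico they were -0.015 between the diets of control larvae without the 4 libraries, and 0.016 with median-ratio scaling and 0.029 with quantile normalization between those of mutant-labelled larvae. InR was -0.00032 on low sugar between the genotypes and 0.077 for the difference between responses without the 4 libraries, and -0.0014 on high sugar with the score as a covariate, where Ilp6 was -0.055. With 1 library left out, the diet responses ranged over -0.061 to 0.065 (Ilp2) and -0.056 to 0.035 (chico) in mutant-labelled larvae and -0.0374 to 0.0501 (chico) and -0.18 to 0.0013 (ImpL2) in control larvae. The genotype differences ranged over -0.063 to 0.18 (Ilp6), -0.019 to 0.12 (InR) and -0.014 to 0.12 (Akh) on high sugar and -0.11 to 0.41 (InR) on low sugar, and the difference between responses over -0.36 to 0.16 (InR) and -0.073 to 0.026 (chico). The cause of these changes was not tested.

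With the replicate number as a block, 5400 and 6830 genes were called between the diets of mutant-labelled and control larvae, 4229 and 4629 between the genotypes on high and low sugar, and 1949 for the difference between responses. Of the members the block changed 1 call, Ilp5 between the diets of control larvae (-0.32, adjusted p = 0.0576). Without the block these counts were 5121 and 6678, 3934 and 4313, and 1659. Deviations of same-numbered libraries correlated at over 0.1 in 13 of 24 pairs (range -0.34 to 0.437). Libraries of different groups and different numbers had a range of -0.565 to 0.499, so high values were not particular to same-numbered pairs. The main fit did not pair libraries by number, and whether same-numbered libraries are related is not known. The median of all genes lay between -0.0379 and 0.0241 under each scaling. Ilp5, Ilp6, Sdr and Akh, with a few CPM, rest on the fewest reads.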
